A study of Felis catus with 25 samples.

Results

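The nuclear-encoded subunits of the respiratory chain and ATP synthase were followed through 25 RNA-seq libraries of corneal fibroblasts from the domestic cat, Felis catus, grown in culture. Members were all gene rows whose symbol begins with NDUF, UQCR or ATP5, is SDHA to SDHD, or begins with COX followed by a digit of 4 to 8, which gave 59 of the 13949 genes in the count tables. They comprise 26 complex I subunits, 7 complex I assembly factors of the NDUFAF series, 3 subunits of complex II, 4 of complex III, 8 of complex IV and 11 of complex V, the ATP synthase. The edgeR filter on low counts kept 10699 genes and 58 of the 59 members. COX7B2 failed it, with 0 to 2 counts per library. Of 81 cat genes in RefSeq whose symbols meet the rule, 22 were not analysed here, among them NDUFA4, COX4I1, SDHD and ATP5F1E.

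Complexes I and II pass electrons from NADH and succinate to coenzyme Q, complex III passes them to cytochrome c, and complex IV passes them to oxygen. Complexes I, III and IV pump protons across the inner mitochondrial membrane, and complex V uses the proton gradient to make ATP. Most subunits are encoded in the nucleus and imported, while a few core subunits are encoded by mitochondrial DNA. Several subunits exist as isoforms that differ between tissues or respond to low oxygen. Transforming growth factor beta 1 (TGFb1) drives stromal fibroblasts of the cornea to become contractile myofibroblasts.

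There were 5 groups of 5 libraries. In UK, TrogGW and Trog, cells had 2 days with 1 ng/ml TGFb1, which was then withdrawn, and were harvested at day 5 after 3 days with a drug. UK cells had 30 uM UK-5099, which blocks pyruvate uptake through its carrier in mitochondria. TrogGW cells had 7.5 uM troglitazone, a PPAR-gamma ligand, together with 10 uM GW9662, a PPAR-gamma antagonist. Trog cells had 7.5 uM troglitazone alone. TGFb cells were harvested at day 2 after 2 days with 1 ng/ml TGFb1. FB cells were untreated, harvested at day 0 and quiescent per the labels. All groups were grown on collagen-coated dishes. No day-2 culture without TGFb1 and no day-5 culture without a drug was analysed here, so the effect of a drug cannot be told apart from that of TGFb1 withdrawal and time. The labels name biological replicates and do not say if cultures or donors were separate, so that the p-values reflect the spread between libraries, which may be technical.

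Libraries held 14781627 to 25210639 counts. Genes of stromal fibroblasts were present in every group. The level of the 10 fibroblast markers in the files moved with the groups. Summed, they made up 67138 to 114459 CPM (counts scaled to library size) of all counts in UK, 2000 to 4088 in TrogGW, 3989 to 6131 in Trog, 71091 to 79441 in TGFb and 65884 to 77174 in FB. COL1A1 and COL1A2, the chains of type I collagen, held most of this sum. The 4 myofibroblast markers, ACTA2 among them, summed to 2452 to 4539 CPM of all counts in UK, 219 to 256 in TrogGW, 449 to 660 in Trog, 6970 to 7753 in TGFb and 2056 to 2280 in FB. Markers of other cell types were lower in sum but moved with the groups as well. The epithelial keratins KRT3 and KRT12 and the leukocyte gene PTPRC had 0 counts, while other members of those lists were present, such as EPCAM with 1953 counts and CD68 with 10409 over the 25 libraries. The 5 immune markers summed to 17.9 to 23.4 CPM of all counts in UK, 27.2 to 31.9 in TrogGW, 30.3 to 39.8 in Trog, 15.04 to 19.7 in TGFb and 9.94 to 12.6 in FB. The 4 vascular endothelial markers, mostly KDR, summed to 3.11 to 13.6 in UK, 50.7 to 75.0 in TrogGW, 22.4 to 28.0 in Trog, 4.54 to 6.20 in TGFb and 8.69 to 10.3 in FB. The 4 epithelial markers in the files summed to 0.599 to 2.77 in UK, 3.74 to 7.22 in TrogGW, 2.19 to 3.64 in Trog, 2.83 to 4.44 in TGFb and 7.57 to 10.5 in FB. The part of any of these markers in the results was not tested. UK replicate 5 stood apart from the other libraries. Its log2 CPM correlated at 0.852 to 0.868 with those of the other UK libraries across genes, against 0.988 to 0.995 for all other pairs of replicates, and its depth was the lowest. Changes of the members in UK are therefore given with and without it, and comparisons of the other groups were fitted on the 20 libraries outside UK.

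The members together were a smaller share of all counts in the later groups than in FB, with UK replicate 5 as the exception. They made up 0.430%, 0.437%, 0.394% and 0.364% of all counts in UK replicates 1 to 4 and 1.38% in UK replicate 5. The share was 0.376% to 0.431% in TrogGW, 0.381% to 0.442% in Trog, 0.372% to 0.437% in TGFb and 0.573% to 0.634% in FB. Without UK replicate 5, every later library lay below every FB library, and the 4 later groups overlapped with each other. Lower shares than in FB were not particular to the members. Cytosolic ribosomal protein genes held 3.12% to 3.54% in FB, 1.81% to 2.38% in TGFb, 2.34% to 2.81% in Trog and 2.04% to 2.33% in TrogGW. They held 2.02% to 2.5% in UK replicates 1 to 4 and 9.42% in UK replicate 5. Mitochondrial ribosomal protein genes held 0.225% to 0.250% in FB, 0.129% to 0.152% in TGFb, 0.184% to 0.210% in Trog and 0.197% to 0.228% in TrogGW. They averaged 0.140% in UK replicates 1 to 4 and held 0.392% in UK replicate 5. For these genes TrogGW overlapped with FB, and Trog and TrogGW lay above TGFb, unlike for the members. In bulk libraries, fewer cells of a type and less RNA per cell cannot be told apart.

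**Figure D1:**
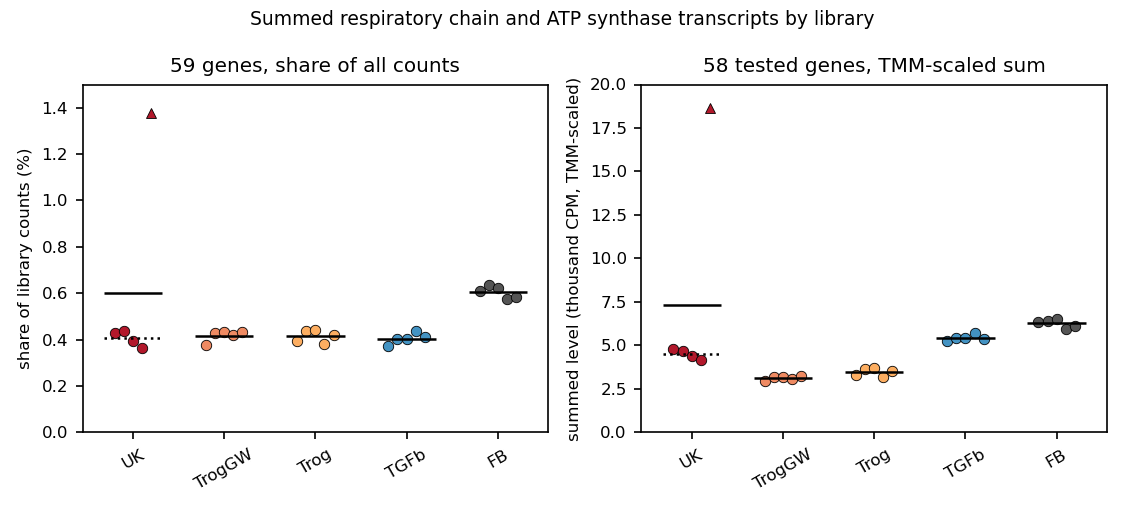
Summed respiratory chain and ATP synthase transcripts per library, on the left as a percent of all counts and on the right as summed TMM-scaled CPM. Points are libraries, the triangle is UK replicate 5, solid bars are means of 5 libraries and dotted bars means of UK replicates 1 to 4. On the left all later libraries but the triangle at 1.38% lie below the FB range of 0.573% to 0.634%, and on the right TrogGW and Trog are the lowest groups.

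The size of the later changes, and in some comparisons their direction, depended on how libraries were scaled. TMM scaling, edgeR's default, assumes that most genes do not change, and its factors averaged 0.871 in UK, 1.34 in TrogGW, 1.2 in Trog, 0.744 in TGFb and 0.965 in FB. The 10 highest genes took 10.6% to 11.5% of the counts in Trog and 20.7% to 23.7% in TGFb. TMM-scaled, the 58 tested members summed to 2928 to 3208 CPM in TrogGW, 3205 to 3694 in Trog, 5220 to 5730 in TGFb and 5942 to 6510 in FB. UK replicates 1 to 4 summed to 4145 to 4786 CPM, below all TGFb and FB libraries, and UK replicate 5 to 18643. Scaling by library totals alone shifted the median log2 fold change of all tested genes by 0.68 for Trog against TGFb, 0.85 for TrogGW against TGFb and -0.38 for TGFb against FB. Rescaling moves all genes of a comparison by nearly the same amount. The gap between the median of the members and that of all tested genes therefore hardly depends on it. Under both scalings this gap was -0.61 for Trog against TGFb, -0.82 for TrogGW against TGFb and -0.19 for TGFb against FB. Counts under both scalings are given below. Levels are TMM-scaled CPM, and a change is the log2 fold change with its SE (n = 5 libraries a side). The quasi-likelihood test of edgeR gave the p-values, adjusted over 10699 genes by the Benjamini-Hochberg method. A gene is said to rise or fall at an adjusted p under 0.05.

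**Figure D2:**
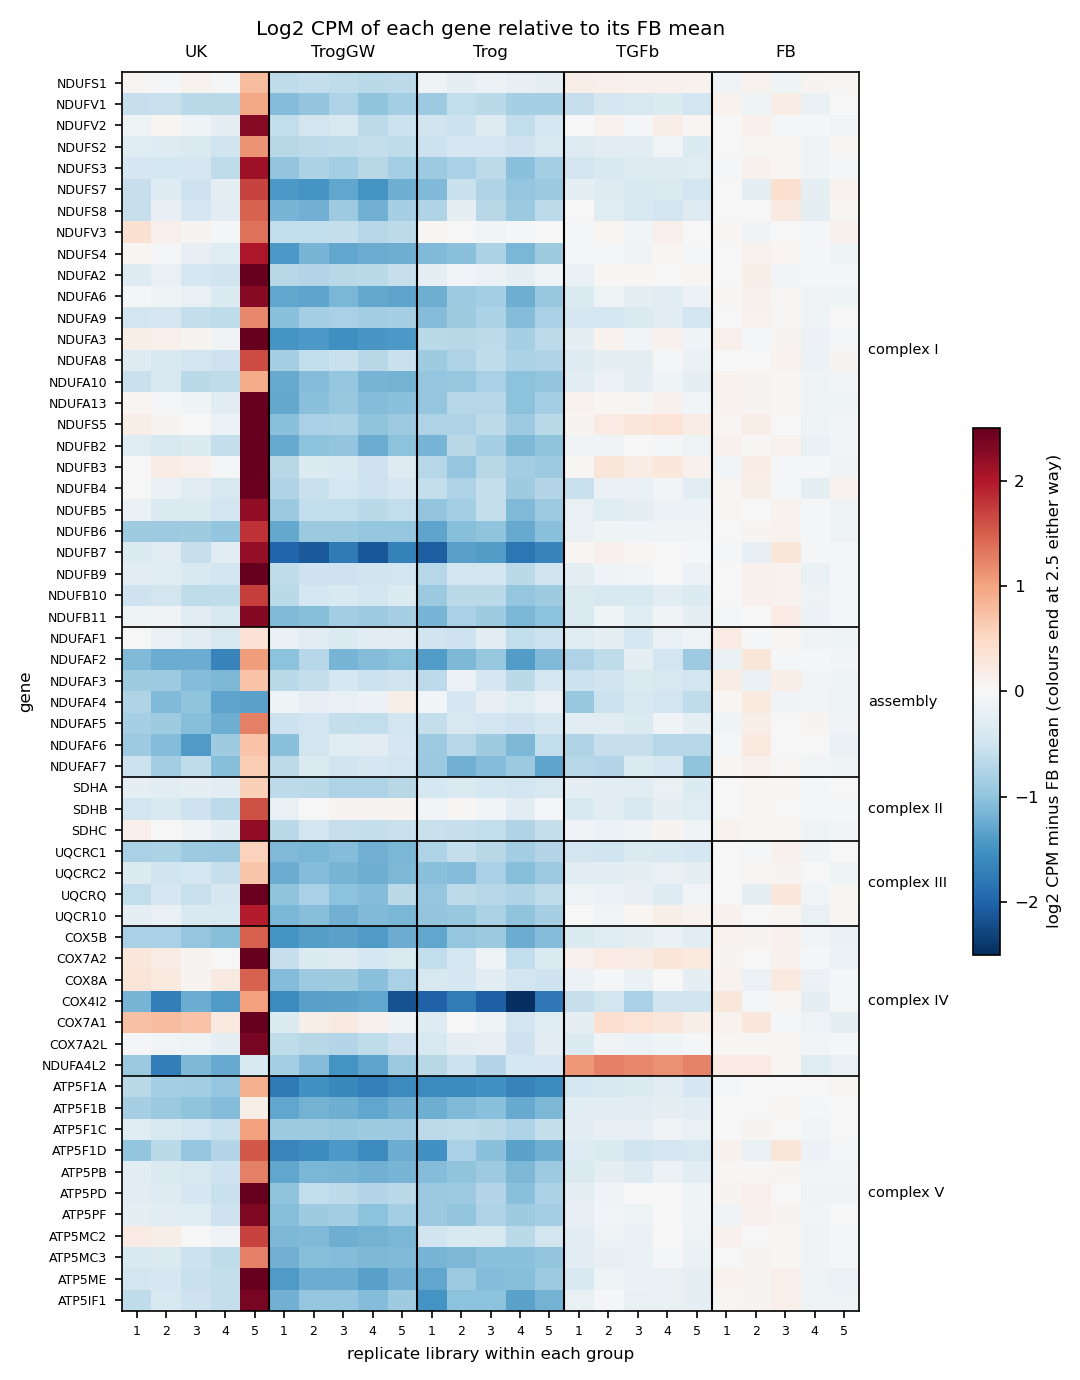
Log2 CPM (TMM-scaled) of each of the 58 tested members minus its mean in FB, with 1 row per gene ordered by complex and 1 column per library. Blue is lower and red higher than FB, with colours ending at 2.5 either way. UK replicate 5 is red in nearly every row, TrogGW and Trog are blue in most rows, and NDUFA4L2 is red in TGFb.

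After 2 days with TGFb1, most members were slightly lower than at day 0, and 1 isoform rose against them. In TGFb against FB, 36 of 58 members fell and 5 rose, 62.1% and 8.62%, beside 34.8% and 32.1% of all tested genes. The median log2 fold change was -0.21. With library totals 55 fell and 1 rose, beside 63.5% and 12.9% of all genes, and 36 members fell under both scalings. In a fit that shares 1 estimate of the spread over all 25 libraries, UK replicate 5 included, 3 members fell and 1 rose.

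All 7 complex I assembly factors fell in TGFb against FB, with a median of -0.59. NDUFAF6 averaged 4.57 CPM in TGFb and 7.27 CPM in FB, a change of -0.67 ± 0.131 (edgeR adjusted p = 6.74e-05). NDUFAF7, in human cells a methyltransferase of a complex I core subunit, averaged 8.32 ± 1.52 CPM in TGFb and 12.8 ± 0.746 CPM in FB (SD), a change of -0.62 ± 0.104 (edgeR adjusted p = 8.37e-06). NDUFAF4 fell by a similar amount, -0.60 ± 0.106 (edgeR adjusted p = 1.86e-05). Of the 26 subunits of complex I, 13 fell and 3 rose. NDUFA9, an accessory subunit near the coenzyme Q site, changed by -0.40 ± 0.0602, while NDUFS5, an accessory subunit of the membrane arm, changed by 0.21 ± 0.0624 (edgeR adjusted p = 0.00378). NDUFS5 was -0.16 with library totals, so its direction turned with the scaling. NDUFS1 and NDUFB3, the other 2 complex I members that rose, turned negative in the same way, at -0.26 and -0.20, as did COX7A2 of complex IV, at 0.21 with TMM and -0.17 with library totals.

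In complex II, the flavoprotein SDHA and the iron-sulfur subunit SDHB fell by 0.27 and 0.31 in TGFb against FB on the log2 scale. In complex III, the core proteins UQCRC1 and UQCRC2 fell, UQCRC1 to 179 ± 7.66 CPM in TGFb against 240 ± 12.3 CPM in FB (SD). In complex V, 9 of 11 members fell and 0 rose. ATP5F1A, the alpha subunit of the catalytic head, stood at 487, 497, 509, 548 and 490 CPM in the TGFb libraries and at 643, 660, 665, 651 and 675 CPM in the FB libraries. The groups did not overlap, and the change was -0.38 ± 0.05 (edgeR adjusted p = 2.14e-07).

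Complex IV held the members that moved apart. NDUFA4L2, a paralog of the complex IV subunit NDUFA4 that is known as a target of hypoxia-inducible factor 1 in human cells, stood at 32.1, 36.2, 34.7, 33.6 and 35.5 CPM in TGFb. In FB it stood at 17.5, 17.5, 15.6, 12.3 and 13.4 CPM. All TGFb libraries lay above all FB libraries, and the rise was 1.18 ± 0.101 (edgeR adjusted p = 8.5e-11) with TMM and 0.80 with library totals. NDUFA4L2 was the 1 member that rose under both scalings. COX4I2, an isoform of subunit 4 that is expressed in lung and known from human cells as oxygen-responsive, moved the other way. It averaged 5.71 ± 0.541 CPM in TGFb and 8.46 ± 1.16 CPM in FB (SD), a change of -0.56 ± 0.138 (edgeR adjusted p = 0.000825).

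Troglitazone for 3 days after TGFb1 withdrawal went with lower TMM-scaled levels of most members. In Trog against TGFb, 53 of 58 members fell and 2 rose, 91.4% and 3.45%, beside 39.3% and 42.2% of all tested genes, with a median of -0.57. With library totals 14 fell and 25 rose, beside 16.2% and 71.7% of all genes. Under both scalings 14 members fell, 2 rose and 20 fell with TMM but rose with library totals. In the fit over all 25 libraries 19 fell and 1 rose. The 14 were ATP5F1A, ATP5F1B, ATP5IF1, ATP5MC3, COX4I2, NDUFA13, NDUFA4L2, NDUFB2, NDUFB3, NDUFB6, NDUFB7, NDUFS4, NDUFS5 and UQCR10, and the 2 were SDHB and NDUFAF4.

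Complex V had the lowest median in Trog against TGFb, -0.79, and all 11 of its members fell with TMM. ATP5F1A stood at 218, 217, 230, 207 and 221 CPM in Trog and at the 487 to 548 CPM given above in TGFb. The fall was -1.21 ± 0.0508 (edgeR adjusted p = 5.89e-18) with TMM and -0.53 with library totals. ATP5F1B, the catalytic beta subunit, averaged 444 ± 26.1 CPM in Trog and 819 ± 15.2 CPM in TGFb (SD), a change of -0.88 ± 0.0495. ATP5IF1, the inhibitor that blocks ATP hydrolysis by the synthase, changed by -1.04 ± 0.0764.

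Of the complex I subunits, 25 of 26 fell with TMM in Trog against TGFb and 0 rose. NDUFB7, an accessory subunit of the membrane arm on the intermembrane space side, stood at 9.84, 15.8, 15.6, 11.6 and 12.8 CPM in Trog and at 42.5, 44.9, 41.4, 40.5 and 39.9 CPM in TGFb. It had the largest change in complex I, -1.67 ± 0.107 (edgeR adjusted p = 6.12e-14), and -0.98 with library totals. NDUFV3, an accessory subunit beside the NADH site, did not pass the test at -0.02 ± 0.0563 (edgeR adjusted p = 0.726), and NDUFA2 changed by only -0.15 ± 0.0566. With library totals NDUFA2 was higher, at 0.54.

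The assembly factors and complex II held the 2 members that rose. SDHB stood at 76.6, 81.5, 77.0, 67.1 and 78.6 CPM in Trog and at 62.0, 66.3, 61.1, 68.8 and 65.4 CPM in TGFb. Trog replicate 4 overlapped with TGFb, and the rise was 0.23 ± 0.0551 (edgeR adjusted p = 0.000358). Its partner SDHC, a membrane anchor, changed by -0.54 ± 0.0525, which was 0.14 with library totals. NDUFAF4 stood at 10.3, 8.0, 9.29, 8.62 and 9.49 CPM in Trog and at 5.52, 7.36, 8.07, 7.69 and 6.84 CPM in TGFb. The rise was 0.36 ± 0.105 (edgeR adjusted p = 0.0028), and Trog replicate 2 lay just below the highest TGFb library.

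In complex IV, NDUFA4L2 stood at 9.36, 10.3, 9.05, 11.2 and 11.2 CPM in Trog, below all the TGFb and FB libraries. Its change against TGFb, -1.75 ± 0.103 (edgeR adjusted p = 9.07e-15), was the largest of all members and was -1.07 with library totals. COX4I2 averaged 2.09 ± 0.433 CPM in Trog and 5.71 ± 0.541 CPM in TGFb (SD), a change of -1.45 ± 0.159. COX7A2L, which in mouse and human cells joins complexes III and IV into supercomplexes, changed by -0.19 ± 0.0585 with TMM and by 0.50 with library totals.

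**Figure D3:**
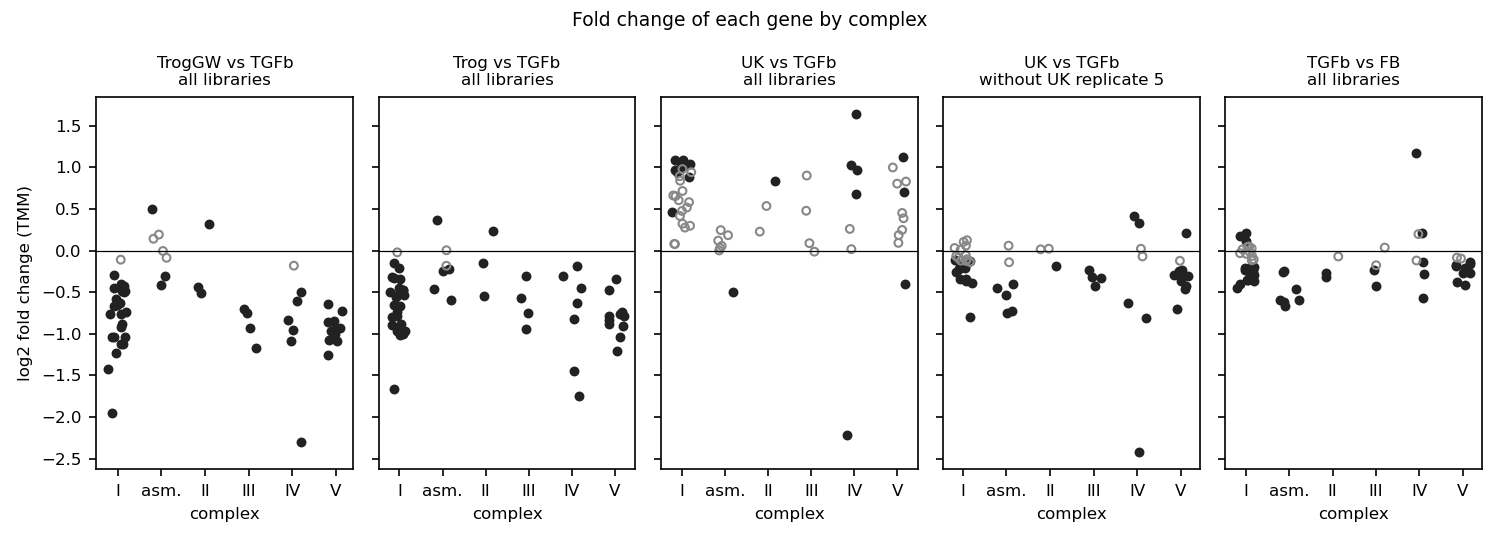
Log2 fold change (TMM) of each tested member, with 1 point per gene, grouped by complex on the horizontal axis (asm., NDUFAF assembly factors). Filled points have an adjusted p under 0.05 and open points do not. Nearly all points lie below 0 for TrogGW and Trog against TGFb, and the UK panel moves from mostly above 0 to mostly below 0 when UK replicate 5 is left out.

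With GW9662 beside troglitazone, the levels lay again below those of TGFb. In TrogGW against TGFb, 50 of 58 members fell and 2 rose, 86.2% and 3.45%, beside 39.4% and 46.7% of all tested genes, with a median of -0.73. With library totals 15 fell and 29 rose, beside 15.2% and 76.1% of all genes. In the fit over all 25 libraries 31 fell and 1 rose. This comparison shares its TGFb libraries with that of Trog. NDUFB7 averaged 10.8 ± 1.47 CPM in TrogGW and 41.8 ± 1.96 CPM in TGFb (SD), a change of -1.96 ± 0.109 (edgeR adjusted p = 1.96e-15). NDUFA4L2 stood at 8.39, 7.14, 5.34, 6.08 and 7.99 CPM in TrogGW, a change of -2.30 ± 0.106 against TGFb, and -1.45 with library totals. All these libraries lay below those of Trog. SDHB and NDUFAF4 were again the 2 members that rose, by 0.32 ± 0.0549 and 0.50 ± 0.104. Assembly factors had a median near 0, at -0.01.

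The direct comparison of TrogGW with Trog set cells with and without the antagonist side by side at the same dose of troglitazone. No culture with GW9662 alone was analysed here. An effect of GW9662 of its own therefore cannot be told apart from a changed response to troglitazone. Of 58 members, 27 were lower in TrogGW than in Trog and 8 were higher, 46.6% and 13.8%, beside 35.4% and 36.3% of all tested genes, with a median of -0.12. With library totals 11 were lower and 23 higher, beside 23.1% and 49.5%. Under both scalings 11 were lower and 8 higher, while 14 were higher without TrogGW replicate 1, and in the fit over all 25 libraries 6 were lower and 1 higher. NDUFA3, an accessory subunit of complex I, stood at 13.7, 14.1, 13.2, 14 and 14.2 CPM in TrogGW and at 24.1, 23.6, 24.4, 21.7 and 24.5 CPM in Trog. The groups lay far apart, with a change of -0.77 ± 0.0667 (edgeR adjusted p = 1.04e-10), and -0.60 with library totals. NDUFV3 averaged 13.3 ± 0.380 CPM in TrogGW and 20.6 ± 0.626 CPM in Trog (SD), a change of -0.63 ± 0.0561.

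In complex V, ATP5MC2, which encodes the c subunit of the proton-driven ring, was lower in TrogGW than in Trog by 0.67 ± 0.0566 on the log2 scale (edgeR adjusted p = 6.86e-11). ATP5F1A differed by -0.05 ± 0.0503 (edgeR adjusted p = 0.423), so no difference was detected for this subunit. In complex IV, COX8A changed by -0.53 ± 0.0742 and NDUFA4L2 by -0.55 ± 0.112. Higher members included 3 assembly factors. NDUFAF7 averaged 9.17 ± 0.703 CPM in TrogGW and 6.01 ± 0.707 CPM in Trog (SD), a change of 0.61 ± 0.103 (edgeR adjusted p = 9.27e-06), and 0.78 with library totals. COX4I2 changed by 0.50 ± 0.163, at levels of only 2.92 ± 0.639 CPM in TrogGW and 2.09 ± 0.433 CPM in Trog (SD).

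In UK, the members' values split between 4 libraries and the fifth. UK replicate 5 lay above the other UK libraries in 57 of 58 members and above every other library of the study in 56. Its ratio to the mean of UK replicates 1 to 4 ran from 0.806 to 9.38 with a median of 4.78, beside a median of 0.950 over all tested genes. NDUFAF4 was the exception, at 6.35, 4.95, 5.30 and 4.29 CPM in UK replicates 1 to 4 and 4.21 CPM in UK replicate 5. The cytosolic ribosomal protein genes, 36 rows, moved with the members in this library, at 9.42% of its counts, against 2.02% to 2.5% in the other UK libraries. Their part in the result was not tested.

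With all 5 UK libraries, UK against TGFb gave 16 members that rose and 3 that fell, 27.6% and 5.17%, beside 28% and 22.5% of all tested genes. Without UK replicate 5, 3 rose and 35 fell, beside 36.1% and 35.3%, and the median was -0.20, against 0.53 with it. With library totals 38 rose and 1 fell, beside 42.5% and 14.8%. Without UK replicate 5 and with library totals, 17 rose and 10 fell, beside 54.5% and 20.3%. The direction of the group as a whole thus turned with 1 library and with the scaling. ATP5F1A stood at 411, 366, 361 and 336 CPM in UK replicates 1 to 4, all below TGFb, and at 1226 CPM in UK replicate 5. Its change against TGFb was 0.09 ± 0.235 with that library (edgeR adjusted p = 0.769) and -0.46 ± 0.0578 without it.

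NDUFA4L2 kept its direction in UK through each of these settings. It stood at 7.99, 4.56, 6.94, 6.27 and 11.6 CPM in UK, so that all 5 libraries lay below all those of TGFb. The change was -2.22 ± 0.176 (edgeR adjusted p = 2.96e-10), -2.42 ± 0.132 without UK replicate 5 and -2.02 with library totals. COX7A1, the isoform of subunit 7A known from heart and skeletal muscle, stood at 11.5, 11.9, 11.4, 8.21 and 84.1 CPM in UK and at 5.94, 9.19, 8.80, 8.51 and 7.71 CPM in TGFb. Its change was 1.64 ± 0.444 (edgeR adjusted p = 0.00362) and 0.42 ± 0.135 without UK replicate 5 (edgeR adjusted p = 0.00709), where UK replicate 4 overlapped with TGFb. The muscle markers in the files, MYH7, ACTN2, CKM, TNNT2 and MYL2, summed to at most 1.01 CPM of all counts in UK and 0.875 in TGFb. COX8A and ATP5MC2 were the other 2 members that rose with and without UK replicate 5, by 0.34 and 0.21 without it. With all 5 UK libraries, a fit of the 2 groups alone called 0 members higher, with edgeR adjusted p = 0.076 for COX7A1, 0.0698 for COX8A and 0.132 for ATP5MC2, DESeq2 called 3 and the fit with the replicate block 4.

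**Figure D4:**
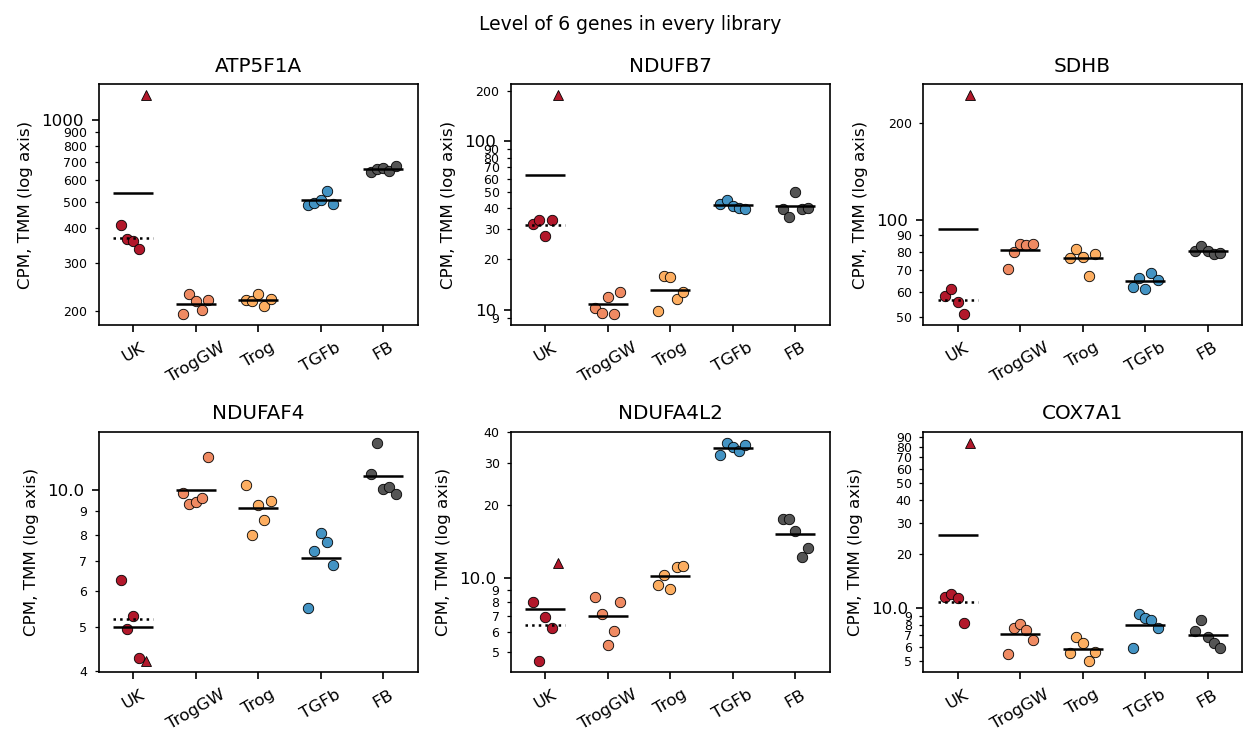
Level of 6 members in every library in CPM (TMM-scaled) on a log axis, with 1 point per library, the triangle for UK replicate 5, solid bars for group means and dotted bars for the mean of UK replicates 1 to 4. ATP5F1A and NDUFB7 are lowest in TrogGW and Trog, NDUFA4L2 is highest in TGFb, and NDUFAF4 is the panel in which the triangle is not above the other UK points.

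Of the other day-5 drug groups, UK was tested against Trog only, where with TMM most members were higher in UK. Of 58, 50 were higher and 2 lower, 86.2% and 3.45%, beside 32.9% and 28.2% of all tested genes, and without UK replicate 5 46 were higher and 7 lower, beside 37.4% and 38.2%. With library totals 30 were higher and 3 lower, beside 16.7% and 49.9%. A fit of the 2 groups alone called 26 higher and DESeq2 21, DESeq2 giving no adjusted p for 30 members. Without UK replicate 5 and with library totals 16 were higher and 20 lower, beside 19.7% and 61%. NDUFB7 changed most, by 2.25 ± 0.383 with UK replicate 5 and 1.28 ± 0.111 without it. NDUFAF4 was lower in UK by 0.86 ± 0.122 on the log2 scale (edgeR adjusted p = 2.05e-06), and by 0.81 ± 0.119 without UK replicate 5. NDUFA4L2 was lower by 0.47 ± 0.173, and by 0.67 ± 0.136 without that library.

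Set against untreated FB, the groups given troglitazone were lower under both scalings, as was TGFb. The log2 ratio of summed member levels to FB, with library totals, was -0.53 in TrogGW, -0.54 in Trog and -0.58 in TGFb. It was -0.57 in UK without UK replicate 5. In TrogGW against FB, 55 of 58 members fell and 0 rose, beside 42% and 44% of all tested genes, and 43 fell and 4 rose with library totals, beside 24.6% and 62.4%. In the fit over all 25 libraries 40 fell. In Trog against FB, 55 fell and 0 rose, beside 40.9% and 41.2%, and 48 fell and 4 rose with library totals, beside 28.3% and 55%. In the fit over all 25 libraries 35 fell. Both comparisons share the FB libraries. COX4I2 changed by -1.52 ± 0.141 in TrogGW and by -2.01 ± 0.150 in Trog. ATP5F1A changed by -1.64 ± 0.0512 in TrogGW and by -1.59 ± 0.0512 in Trog. NDUFB7 changed by -1.93 ± 0.108 in TrogGW and by -1.64 ± 0.106 in Trog. COX7A1 did not pass the test in either, at 0.02 ± 0.125 and -0.25 ± 0.128. In UK against FB, 11 members rose and 3 fell, beside 30% and 26.5%, while without UK replicate 5 2 rose and 44 fell, beside 38.8% and 39.5%. With library totals 6 rose and 13 fell, beside 23.5% and 32.6%, or 1 and 48 without UK replicate 5, beside 34% and 43.8%. A fit of the 2 groups alone called 1 higher, DESeq2 3, and the replicate block 4 higher and 5 lower. NDUFAF4, NDUFA4L2 and ATP5F1B fell in UK against FB with and without this library. NDUFAF4 changed by -1.09 ± 0.123, and by -1.05 ± 0.119 without it.

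Ratios of 2 members within a library do not depend on scaling between libraries. Log2 ratios were formed for 4 pairs and tested over 9 comparisons by two-sided exact permutation tests with Benjamini-Hochberg adjustment over the 36. Of these, 20 passed, and 20 also passed without UK replicate 5. With 5 libraries a side the smallest p such a test can give is 0.00794. The ratios are of counts, uncorrected for gene length, so that their differences between groups and not their values are of use.

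ATP5MC2 and ATP5MC3 encode the same mature c subunit with different import sequences. Reads from the shared part can be assigned to either, so their single levels are uncertain. The log2 ratio of ATP5MC2 to ATP5MC3 was 1.54, 1.45, 1.48, 1.5 and 1.37 in UK, 1.03, 0.91, 0.82, 0.91 and 0.91 in TrogGW, 1.60, 1.70, 1.59, 1.31 and 1.49 in Trog, 0.94, 1.02, 0.94, 1.0 and 1.0 in TGFb and 1.06, 0.89, 0.94, 0.95 and 0.93 in FB. All UK and Trog libraries, UK replicate 5 included, lay above all libraries of the other 3 groups. The difference was 0.56 for Trog against TGFb (exact permutation adjusted p = 0.019, higher in 5 of 5 libraries), 0.49 for UK against TGFb and -0.62 for TrogGW against Trog, each with the same adjusted p. Without UK replicate 5 it was 0.51 for UK against TGFb (exact permutation adjusted p = 0.022). For TrogGW against TGFb it was -0.06 (exact permutation adjusted p = 0.137).

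The log2 ratio of COX7A2L to COX7A2 was highest in Trog and FB. It averaged 0.78 ± 0.127 in UK, 0.86 ± 0.137 in TrogGW, 1.19 ± 0.123 in Trog, 0.74 ± 0.0729 in TGFb and 1.09 ± 0.0719 in FB (SD). The difference was 0.45 for Trog against TGFb and -0.35 for TGFb against FB, both at an exact permutation adjusted p = 0.019 and without overlap. For TrogGW against Trog it was -0.33 (exact permutation adjusted p = 0.0301), with TrogGW replicate 1 overlapping with Trog. The difference was -0.41 for UK against Trog and -0.31 for UK against FB (exact permutation adjusted p = 0.019 each), and without UK replicate 5 these were -0.35 (adjusted p = 0.0336, exact permutation) and -0.26 (adjusted p = 0.022, exact permutation).

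The log2 ratio of the muscle isoform COX7A1 to COX7A2 averaged -2.90 ± 0.182 in UK, -3.01 ± 0.152 in TrogGW and -3.25 ± 0.180 in Trog (SD). It averaged -3.44 ± 0.215 in TGFb and -3.42 ± 0.175 in FB (SD). UK and TrogGW each lay above all TGFb libraries, by 0.54 and 0.43 (exact permutation adjusted p = 0.019 each). Without UK replicate 5 the difference for UK against TGFb was 0.49 (exact permutation adjusted p = 0.0336). Against FB, UK and TrogGW were higher by 0.52 and 0.42 with overlap (exact permutation adjusted p = 0.0301 and 0.0429). Against Trog the differences of 0.34 for UK and 0.24 for TrogGW did not pass (exact permutation adjusted p = 0.0519 and 0.0994). The muscle markers summed to 20.3 to 25.7 CPM of all counts in TrogGW and 31.3 to 41.3 in Trog, nearly all of it TNNT2, with 0 counts of MYL2 and 2 of MYH7 over the 25 libraries. Their part in the COX7A1 ratio was not tested. For the ratio of the inhibitor ATP5IF1 to its target ATP5F1B, UK lay above Trog by 0.85 and, without UK replicate 5, by 0.49 (exact permutation adjusted p = 0.022 without it). TrogGW also lay above Trog, by 0.28, and above FB, by 0.22 (exact permutation adjusted p = 0.019 each). UK was higher than FB by 0.79 and than TGFb by 0.69. Without UK replicate 5 these were 0.43 and, with overlap, 0.33 (exact permutation adjusted p = 0.022 and 0.0429). Trog did not pass against FB at -0.06 or TGFb at -0.16 (exact permutation adjusted p = 0.487 and 0.0519). TrogGW did not pass against TGFb at 0.12 (exact permutation adjusted p = 0.131).

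**Figure D5:**
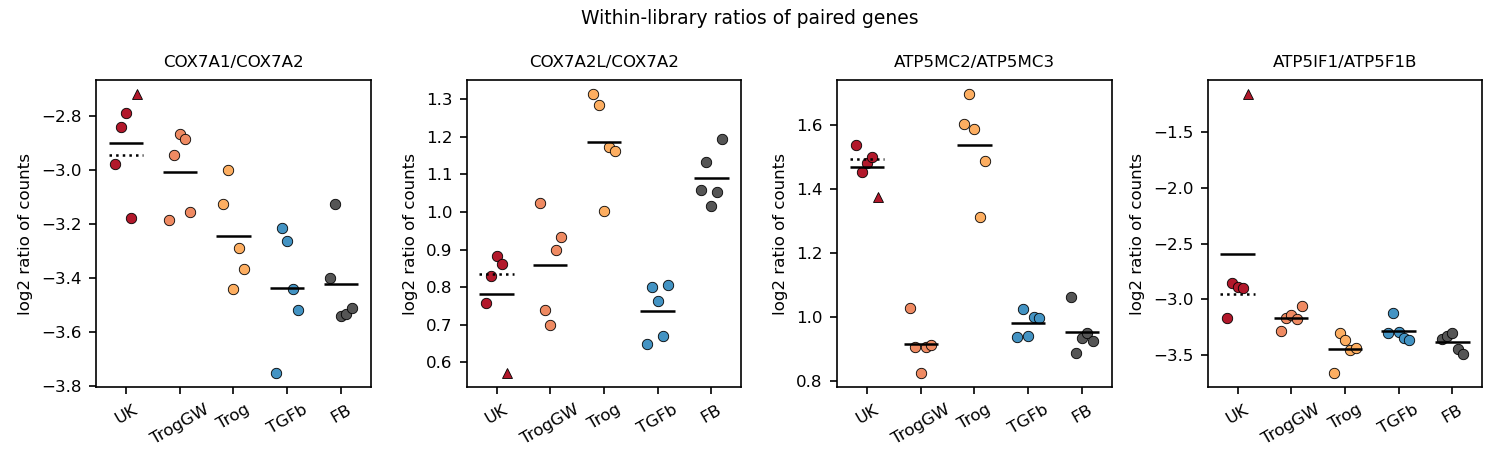
Log2 ratio of the counts of 2 members within each library, for 4 pairs. Points are libraries, the triangle is UK replicate 5, solid bars are means of 5 libraries and dotted bars means of UK replicates 1 to 4. In the ATP5MC2 to ATP5MC3 panel UK and Trog lie above the other groups, and in the ATP5IF1 to ATP5F1B panel UK replicate 5 at -1.15 lies far above the rest.

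Assembly genes are set beside all tested genes, of which in Trog against TGFb 42.2% rose and 39.3% fell, or 71.7% and 16.2% with library totals. Of 21 tested genes for complex IV assembly and copper delivery, 5 rose and 4 fell in Trog against TGFb, and 19 rose and 1 fell with library totals. The 1 was COX20, a chaperone of the subunit COX2, which stood at 2.58, 2.85, 3.61, 2.54 and 2.67 CPM in Trog and at 11.5, 13.9, 11.3, 12.2 and 13.3 CPM in TGFb, a change of -2.13 ± 0.120 (edgeR adjusted p = 3.99e-15). COX20 changed by -2.16 ± 0.119 in TrogGW against TGFb. COX10, which makes heme O, rose by 0.78 ± 0.0576 in Trog. Of 9 other complex I assembly genes, 2 rose and 3 fell in Trog, with TIMMDC1 at -1.0 ± 0.0559, and with library totals 6 rose and 1 fell. Of 9 complex II and III assembly genes, 1 rose and 5 fell, with SDHAF4 at -1.19 ± 0.121 in Trog and -2.26 ± 0.132 in TrogGW, both against TGFb, and with library totals 7 rose and 1 fell in Trog. Of 4 ATP synthase assembly genes, 1 rose and 1 fell in Trog, and all 4 rose with library totals. The 1 that rose was TMEM70, which aids insertion of the c ring, with a change of 1.10 ± 0.0567 in Trog against TGFb.

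Among 16 tested regulators of mitochondrial gene expression, 9 rose and 1 fell in Trog against TGFb, and 10 rose and 2 fell in TrogGW against TGFb, beside 42.2% and 39.3% of all tested genes in Trog and 46.7% and 39.4% in TrogGW. With library totals 15 rose in Trog and 14 in TrogGW and 0 fell, beside 71.7% and 76.1% of all genes that rose. PPARGC1B, a coactivator that drives mitochondrial biogenesis in mouse, stood at 6.62, 9.46, 7.39, 7.72 and 6.26 CPM in Trog and at 2.97, 1.52, 1.69, 1.12 and 1.99 CPM in TGFb. All Trog libraries lay above all TGFb libraries, with a change of 2.00 ± 0.171 (edgeR adjusted p = 2.78e-11). In TrogGW it stood at 2.41, 1.67, 2.07, 1.77 and 2.24 CPM, a change of -1.89 ± 0.155 against Trog (edgeR adjusted p = 3.57e-11). TWNK, the helicase of mitochondrial DNA, rose by 0.81 ± 0.0662 in Trog and by 1.05 ± 0.0655 in TrogGW. In TGFb against FB 8 regulators fell and 5 rose, beside 34.8% and 32.1%, or 13 and 0 with library totals, beside 63.5% and 12.9%, with TEFM, a mitochondrial transcription elongation factor, at -0.65 ± 0.0872.

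The targets of hypoxia-inducible factor, among which NDUFA4L2 is known, were counted in a list of 14 tested genes that holds no member. In TGFb against FB 10 rose and 2 fell, beside 32.1% and 34.8% of all tested genes. CA9, a carbonic anhydrase, rose by 1.08 ± 0.0995. With library totals 7 rose and 5 fell, beside 12.9% and 63.5%. In UK against TGFb 1 rose and 11 fell, beside 28% and 22.5%, and the counts were equal without UK replicate 5, beside 36.1% and 35.3%. LDHA, a lactate dehydrogenase subunit, was at -2.69 ± 0.125, and at -2.88 ± 0.0763 without that library. In Trog against TGFb 9 fell and 5 rose, with CA9 at -3.73 ± 0.122 and VEGFA at 0.72 ± 0.0731, beside 39.3% and 42.2%. With library totals 6 fell and 7 rose, beside 16.2% and 71.7%.

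The remaining lists are given for Trog against TGFb, where 39.3% of all tested genes fell and 42.2% rose, or 16.2% and 71.7% with library totals. Of 10 coenzyme Q synthesis genes, 7 fell and 1 rose in Trog against TGFb, the 1 being the kinase-like COQ8A at 1.29 ± 0.104, and with library totals 4 rose and 0 fell. Of 16 outer membrane, import and cristae genes, 10 fell and 3 rose, with the outer membrane channel VDAC1 at -1.25 ± 0.0441 and the chaperone HSPA9 at 1.10 ± 0.0485, and with library totals 2 fell and 11 rose. Of 8 genes for superoxide and alternative electron transfer, 4 fell and 2 rose, and with library totals 1 fell and 7 rose. SOD2, the superoxide dismutase of the matrix, averaged 468 CPM in Trog and 38.8 CPM in TGFb, a change of 3.59 ± 0.0955. Of 12 mitophagy and quality control genes, 7 rose and 1 fell, or 12 and 0 with library totals, with the autophagy receptor SQSTM1 at 2.82 ± 0.0966. CYC1, the cytochrome c1 subunit of complex III, did not pass the test in Trog against TGFb and fell by 0.32 in TGFb against FB. The 13 genes of mitochondrial DNA in the tables had 62 to 135 counts in all per UK library, 6 to 24 in TrogGW, 23 to 78 in Trog, 97 to 126 in TGFb and 112 to 168 in FB, too few to set beside the nuclear subunits.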

How the data were processed

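Polyadenylated RNA (200 ng) was sequenced as stranded libraries, per the labels' protocols. The authors deposited 1 table of raw counts per library, with gene symbols. The submitters' processing notes list Salmon 1.5.2, featureCounts, Subread 2.0.1, STAR 2.7.9a and fastp 0.23.1 with no roles, while the genome build, annotation and strand setting are not given in the sources used here. Overlapping or antisense genes may therefore share counts.

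Counts were filtered (minimum count 10, minimum total 15) and TMM-scaled over 25 libraries in edgeR 4.0.16 (R 4.3.3). Comparisons among TrogGW, Trog, TGFb and FB used the 20 libraries outside UK, and those with UK used all 25. The quasi-likelihood test was applied to 9 comparisons with Benjamini-Hochberg adjustment. The edgeR steps were tested on simulated counts for TGFb against FB only, with as many genes raised as lowered. The UK fits, the permutation tests and a shift between scalings were not simulated. CPM are counts scaled to the TMM-scaled total unless given as a share of all counts. Ratios used an offset of 0.5 counts. Alternatives were DESeq2 1.42.0, other scalings, filters, fits and left-out libraries. Fits without UK replicate 5 for the comparisons outside UK, and library totals without it, were added after seeing the data. No 2 libraries of a group agreed within sampling noise.

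The members, gene lists and isoform pairs were chosen with earlier results of these data known. Named members are ATP5F1A, the isoform pairs, and per comparison the 3 called members with the largest and smallest change and, per complex, the called member with the lowest p. Named list genes are those with the lowest p in each direction. NDUFS1, NDUFB3, SDHB and UQCRC2 in TGFb against FB and NDUFV3 in Trog against TGFb fall outside that rule and were chosen after their values were seen. Gene sequences were not used here.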

Additional observations from a re-analysis of the deposited data

Results flagged for a closer look

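Of 230 groups of 5 libraries examined, 49 held a library whose gap to its nearest neighbour exceeded 0.71 of the group range, where chance gives about 1 in 20 groups. The 9 from other libraries were no more than that rate gives. UK replicate 5 accounted for the other 40. Its CPM stood apart from the other UK libraries for ATP5F1A at 1226, ATP5F1B at 1085, ATP5IF1 at 487, ATP5MC2 at 875, ATP5MC3 at 337, ATP5ME at 447, COX4I2 at 17.2 and COX5B at 567. The same held for COX7A1 at 84.1, COX7A2 at 554, COX7A2L at 823, COX8A at 93.4, NDUFA2 at 221, NDUFA3 at 220.4, NDUFA9 at 170.4 and NDUFAF5 at 53.2. The same held for NDUFAF6 at 11.9, NDUFAF7 at 19.9, NDUFB3 at 176, NDUFB4 at 225, NDUFB6 at 187, NDUFB7 at 187, NDUFS1 at 193 and NDUFS5 at 884. The same held for NDUFV3 at 53.3, SDHA at 381, SDHB at 244, SDHC at 352, UQCR10 at 185, UQCRC1 at 356 and UQCRC2 at 292. It also stood apart in summed CPM, with 18643 for members, 7252 for complex I, 226 for the assembly factors, 977 for complex II, 1021 for complex III, 2149.9 for complex IV and 7016 for complex V, in its share of counts at 1.38%, and in the log2 ratio of ATP5IF1 to ATP5F1B at -1.15. Single libraries of other groups that stood apart were FB replicate 2 at 40.1 CPM for NDUFA2, TGFb replicate 1 at 32.1 CPM for NDUFA2, TrogGW replicate 1 at 35.8 CPM for NDUFA9, TrogGW replicate 5 at 11.8 CPM for NDUFAF4, FB replicate 2 at 26.8 CPM for NDUFB3, TGFb replicate 1 at 46.7 CPM for NDUFB6, TrogGW replicate 1 at 22.1 CPM for NDUFB6 and TGFb replicate 4 at 79.9 CPM for SDHC. TrogGW replicate 1 was low in the share of counts held by the members, at 0.376%.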

How the results depend on the processing

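With library totals the counts of called members were 1 higher and 55 lower in TGFb against FB, 25 higher and 14 lower in Trog against TGFb, 29 higher and 15 lower in TrogGW against TGFb, 38 higher and 1 lower in UK against TGFb, 23 higher and 11 lower in TrogGW against Trog, 30 higher in UK against Trog, 4 higher in Trog against FB, 4 higher in TrogGW against FB and 6 higher and 13 lower in UK against FB. In this section, signs of single genes were compared only for the members named by rule in each comparison. Members outside that rule changed sign with library totals too, such as NDUFS1 and NDUFB3 in TGFb against FB. Log2 fold changes of named members that changed sign with library totals were TGFb against FB for COX7A1 at -0.18, COX7A2 at -0.17 and NDUFS5 at -0.16. Others were Trog against TGFb for ATP5MC2 at 0.34, COX7A1 at 0.23, COX7A2 at 0.0564, COX7A2L at 0.50, COX8A at 0.38, NDUFA2 at 0.54, NDUFAF7 at 0.22 and SDHC at 0.14. Others were TrogGW against TGFb for ATP5IF1 at 0.000554, COX7A1 at 0.67, COX7A2 at 0.24, COX7A2L at 0.36, COX8A at 0.0208, NDUFB4 at 0.56 and SDHA at 0.41. Others were TrogGW against Trog for ATP5F1A at 0.12, ATP5F1B at 0.0796 and ATP5MC3 at 0.13, UK against Trog for ATP5F1B at -0.0131 and SDHA at -0.11, Trog against FB for COX7A1 at 0.0562, NDUFA2 at 0.15, NDUFAF4 at 0.0707 and NDUFS1 at 0.11. Others were TrogGW against FB for COX7A2 at 0.0734, NDUFAF1 at 0.21 and NDUFB3 at 0.0232, UK against FB for ATP5MC3 at -0.14. The log2 ratio of the summed member levels changed sign too, to 0.0386 in Trog against TGFb, 0.0451 in TrogGW against TGFb, 0.00651 in TrogGW against Trog and -0.00812 in UK against FB. With library totals and without UK replicate 5, an alternative chosen after seeing the data, the counts were 10 lower in UK against TGFb, 16 higher and 20 lower in UK against Trog and 1 higher and 48 lower in UK against FB, and signs changed in UK against TGFb for ATP5F1A at -0.18, ATP5IF1 at -0.0833, ATP5MC3 at -0.0209, ATP5ME at -0.0148 and COX4I2 at -0.53, UK against Trog for ATP5F1B at -0.22, COX7A2L at -0.20 and SDHA at -0.24, UK against FB for ATP5IF1 at -0.63, ATP5MC2 at -0.0246, ATP5MC3 at -0.57, COX7A2L at -0.22, NDUFS5 at -0.0713 and SDHC at -0.14. With only the 2 groups compared in the fit, the counts were 0 higher in UK against TGFb, 26 higher and 1 lower in UK against Trog and 1 higher in UK against FB. With all 25 libraries in the fit, they were 1 higher and 3 lower in TGFb against FB, 1 higher and 19 lower in Trog against TGFb, 1 higher and 31 lower in TrogGW against TGFb, 1 higher and 6 lower in TrogGW against Trog and 35 lower in Trog against FB. DESeq2 called 3 higher in UK against TGFb, 21 higher in UK against Trog and 3 higher in UK against FB, and gave no adjusted p for 30 of the members in each comparison with UK. The stricter filter gave 13 higher in TrogGW against Trog, and signs changed in TrogGW against Trog for ATP5F1A at 0.00639 and ATP5MC3 at 0.0106. DESeq2 size factors changed the sign in TrogGW against Trog for COX7A2 at -0.00826. No clear sign that replicate numbers pair the samples was found, though 5 libraries a group cannot exclude pairing. Same-numbered libraries had correlations of deviations of -0.19 to 0.33. With the replicate block the counts were 4 higher in UK against TGFb and 4 higher and 5 lower in UK against FB, signs changed in UK against TGFb for ATP5F1A at -0.0194 and COX4I2 at -0.13, UK against FB for ATP5MC3 at -0.031, and 0 isoform ratios passed, since the smallest p the blocked permutation allows is 0.0625. Leaving out 1 library at a time gave 3 to 5 higher in TGFb against FB, 3 to 29 higher in UK against TGFb, 2 to 35 lower in UK against TGFb, 6 to 14 higher in TrogGW against Trog, 1 to 7 lower in UK against Trog, 2 to 22 higher in UK against FB and 3 to 44 lower in UK against FB. For UK against TGFb, 27 to 29 members were higher without any 1 of UK replicates 1 to 4, 3 without UK replicate 5, and 7, 10, 7 and 9 without TGFb replicates 1, 2, 3 and 5. For UK against FB, 21 or 22 were higher without any 1 of UK replicates 1 to 4, and 7 without FB replicate 4 or 5. For TGFb against FB, 3 were higher without FB replicate 1, 3 or 5, and for UK against Trog 1 was lower without UK replicate 2 or 4 and 7 without UK replicate 5. Log2 fold changes whose range crossed 0 were UK against TGFb for ATP5F1A -0.46 to 0.22, ATP5IF1 -0.37 to 1.03, ATP5MC3 -0.30 to 0.38, ATP5ME -0.30 to 1.34, COX4I2 -0.81 to 0.22 and COX7A2 -0.0709 to 1.22, TrogGW against Trog for COX7A2 -0.0309 to 0.10, TrogGW against FB for COX7A1 -0.0372 to 0.10, UK against FB for ATP5IF1 -0.53 to 0.86, ATP5MC3 -0.47 to 0.21, COX7A2L -0.12 to 1.00 and SDHC -0.0493 to 0.94. The difference in the COX7A1 to COX7A2 log2 ratio ran from -0.0714 to 0.0631 in TGFb against FB, and without UK replicate 5 the summed level changed sign, to -0.27 in UK against TGFb and -0.48 in UK against FB. In the 2-group edgeR fit of UK against TGFb, 2 members were higher at an unadjusted p under 0.05. The cause of these changes was not tested. COX7B2, with at most 2 counts per library, was too low to test at this depth.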
